A study of Mus musculus with 2 samples.

Results

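The genes described here are 40 genes of protein folding and secretion in the endoplasmic reticulum (ER), taken by name from a fixed list, out of 30905 genes in the count tables. All 40 were found under 1 gene identifier each. They comprise 3 genes of the stress sensors and their transcription factor, 11 chaperones and chaperone helpers and 3 genes of the lectin cycle. The others are 7 enzymes of disulfide bond formation, 6 genes of ER-associated degradation, 7 of translocation into the ER and 3 of signal peptidase. Their levels were read in plasma, B, T and myeloid cells.

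Leukocytes sorted for CD45 from colorectal tumor tissue of male C57BL/6 mice were captured one by one in droplets for RNA sequencing (10x Genomics kit, 3′ V3). Tumors were induced in all mice with the carcinogen azoxymethane (AOM, 12 mg/kg) and 3 cycles of 2.5% dextran sodium sulfate (DSS), an agent that damages the gut lining, each cycle being DSS for 7 days and then water for 14. From cycle 2 one group ate ad libitum and the other received the fasting-mimicking diet (FMD), which restricts calories so as to resemble a fast. Each diet was 1 library pooled from 4 mice. The title of the study names IgA+ cells, and plasma cells are the cells that secrete IgA in the gut. Neither diet had a second library, so no value below carries a test between diets, and brackets hold 95% intervals for counting error only.

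Proteins bound for secretion enter the ER through the Sec61 channel, lose their signal peptide, are folded by chaperones and disulfide isomerases, and are exported or, when misfolded, sent back for degradation. Load on this system is sensed by IRE1 (gene Ern1), ATF6 and PERK, and active IRE1 splices the mRNA of Xbp1 into the form that encodes a strong transcription factor. Plasma cells are the textbook case of a cell that enlarges its ER, under XBP1, to make antibody. Counts of 3′ ends cannot tell spliced from unspliced Xbp1 mRNA, so values for Xbp1 are of both forms together.

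Many ER chaperone genes carry a stress response element in their promoter, the sequence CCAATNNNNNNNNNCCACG, which binds ATF6 together with NF-Y. A second form, ATTGGNCCACG, and the XBP1 element core, TGACGTGG, were searched as well, each on both strands. The windows ran from 250 bases before to 50 bases after the start site in the RefSeq table of build GRCm38.p6, which held a window for 32 of the 40 genes. The stress response element was found in 9 of the 32 genes (28.1%), namely Hspa5, Hsp90b1, Creld2, Dnajc3, Calr, Canx, Pdia6, Derl3 and Syvn1, against 0.137% of all 27025 genes in the table. The second form was found in Dnajb11 and Herpud1 (6.25% of the 32, against 0.0444% of all genes). The XBP1 element core was found in Txndc5 and Txndc11 (6.25%, against 0.714% of all genes). It lay in 1 of the 3 windows of Txndc5 and in 1 of the 2 windows of Txndc11. No matches overlapped within a window, and 13 of the 32 genes (40.6%) had at least 1 match, against 0.884% of all genes. Of 124 other ER genes with a window, listed below by function, none held the stress response element, 1 held the second form and 8 held the core. A match describes these letters in the window and does not show a bound site.

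Parts of 6 promoters are shown because these genes differ widely in how far plasma-like cells exceeded the other classes. Each is written 5′ to 3′ on the strand of the gene and ends before the start site, with the matches in capitals. A match on the opposite strand reads in reverse, as CGTGG before ATTGG. Hspa5 (chr2:34771840-34772089, plus strand), Hsp90b1 (chr10:86705513-86705676, minus strand), Canx (chr11:50325780-50325838, minus strand) and Derl3 (chr10:75893222-75893280, plus strand) hold the stress response element. Herpud1 (chr8:94386357-94386407, plus strand) holds the second form and Txndc5 (chr13:38528025-38528072, minus strand) the XBP1 element core. The Txndc5 stretch is from 1 of its 3 windows and lies inside the annotated gene, which begins at 38528824 on this strand.
Hspa5: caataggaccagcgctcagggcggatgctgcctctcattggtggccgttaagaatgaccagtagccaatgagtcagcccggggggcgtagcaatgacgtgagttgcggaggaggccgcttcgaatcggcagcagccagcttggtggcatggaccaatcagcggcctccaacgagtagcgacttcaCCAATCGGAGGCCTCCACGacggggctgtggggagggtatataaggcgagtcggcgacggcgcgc
Hsp90b1: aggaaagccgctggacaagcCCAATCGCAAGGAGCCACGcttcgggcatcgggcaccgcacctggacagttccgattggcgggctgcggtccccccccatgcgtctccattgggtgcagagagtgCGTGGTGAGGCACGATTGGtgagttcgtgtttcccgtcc
Canx: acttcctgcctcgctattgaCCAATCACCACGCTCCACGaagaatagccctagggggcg
Derl3: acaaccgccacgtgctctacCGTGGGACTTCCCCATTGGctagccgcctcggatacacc
Herpud1: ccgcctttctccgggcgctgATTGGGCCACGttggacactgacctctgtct
Txndc5: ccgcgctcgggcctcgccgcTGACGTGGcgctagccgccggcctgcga

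The libraries held 6089 barcodes with 35712762 UMIs (ad libitum) and 5877 barcodes with 35280790 UMIs (FMD), and 4838 and 4577 cells were kept. A UMI marks 1 captured mRNA molecule. Cells were clustered without the 40 genes and without the other ER genes, and clusters were named from markers that are not among them. Plasma-like cells, named from Jchain, Sdc1, Prdm1 and similar genes, numbered 89 and 32, B-like cells 3125 and 2834, T-like cells 1091 and 1115 and myeloid-like cells 198 and 224 in the ad libitum and the FMD library, the order in which pairs of values are given throughout. Median UMIs per cell were 38044 and 40722 in plasma-like, 5101 and 5258 in B-like, 7225 and 7312 in T-like and 4906 and 11078.5 in myeloid-like cells. Other clusters, among them innate lymphoid-like, mast-like and low-depth cells and cells led by hemoglobin genes, held 335 and 372 cells and were left out. The libraries shared 7 cell barcodes. Because immunoglobulin mRNA made up 56.3% and 55.3% of the UMIs of plasma-like cells, a level is given as UMIs per 1000000 UMIs outside immunoglobulin genes.

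Plasma-like cells carried the ER genes at levels far above every other class. The 40 genes together took 5.46 and 5.41 percent of the UMIs outside immunoglobulin genes in plasma-like cells, 0.592 and 0.606 percent in B-like, 0.638 and 0.610 percent in T-like and 0.973 and 1.12 percent in myeloid-like cells. The range across single plasma-like cells was wide. The share ran from 1.71% to 12.3% per cell with a median of 5.53% in the ad libitum library, and from 3.43% to 8.53% with a median of 5.71% in the FMD library. In B-like cells the medians were 0.553% and 0.566%, and 90% of cells lay under 0.812% and 0.841%. Across plasma-like cells this share did not follow the share of immunoglobulin UMIs, which itself ran from 18.3% to 84.9% and from 18.8% to 74.2% (Pearson r −0.056 over 89 cells and 0.036 over 32 cells, each of a single library).

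**Figure D1:**
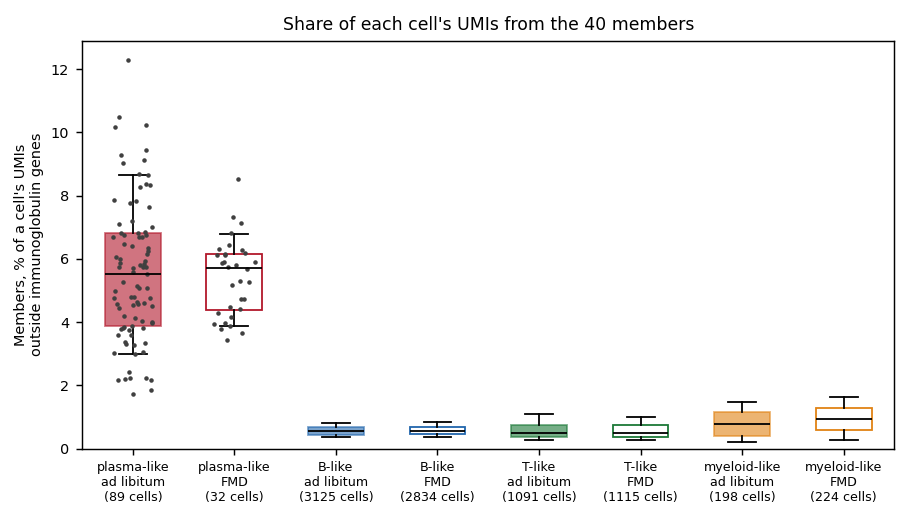
Share of each cell's UMIs outside immunoglobulin genes that came from the 40 genes, by class and library (boxes are quartiles with the median, whiskers the 10th and 90th percentiles, points single plasma-like cells, filled boxes ad libitum and open boxes FMD). The plasma-like medians were 5.53% and 5.71%, and the myeloid-like medians, the next highest, 0.773% and 0.929%.

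Against B-like cells, the lineage from which plasma cells arise, 38 of the 40 genes were at least 2-fold higher in plasma-like cells in both libraries, where 13.4% of all 9229 genes with at least 100 UMIs were. The median log2 ratio of the 40 was 3.03 in each library, an 8.18-fold and 8.15-fold excess, against −0.27 and −0.13 over all genes. None of the 40 was at least 2-fold lower, where 15.9% of all genes were. Against T-like cells 38 of 40 were higher (10.8% of 8581 genes, with 20.4% lower), with medians of 3.06 and 3.09. Against myeloid-like cells 33 of 40 were higher (13.5% of 5946 genes, with 22.6% lower), with medians of 2.43 and 2.17. With all UMIs as denominator, so that immunoglobulin mRNA counts against every other gene, the myeloid count fell to 20 of 40, while the B and T counts were 33 and 30. Epithelial marker genes, which should be absent from sorted leukocytes, summed to levels of 128 and 103 in plasma-like, 6.19 and 8.77 in B-like, 13.0 and 9.71 in T-like and 463 and 54.9 in myeloid-like cells, and their part in these ratios was not tested.

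**Figure D2:**
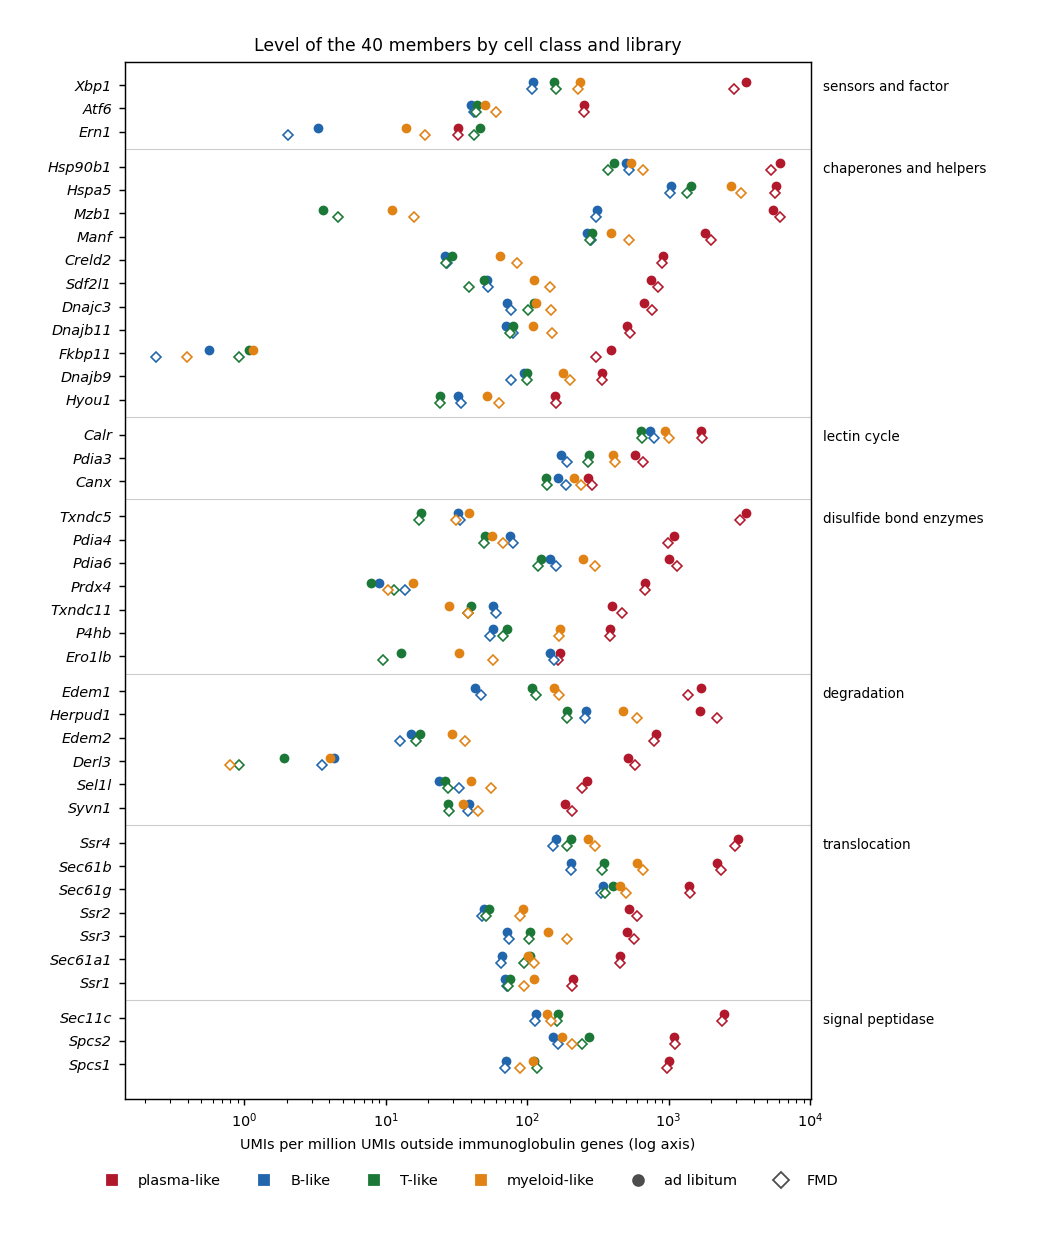
Level of each of the 40 genes, in UMIs per 1000000 UMIs outside immunoglobulin genes on a log axis, grouped by role, with the class in color, ad libitum as filled circles and FMD as open diamonds. The plasma-like points lie to the right for most genes. For Ern1 the T-like points lie to the right of the plasma-like ones, and for Ero1lb the B-like and plasma-like points lie close together.

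Among the sensors and their factor, Xbp1 stood out. Its level was 3535 and 2911 in plasma-like cells, 109.7 and 109 in B-like, 154 and 160.5 in T-like and 237 and 230.2 in myeloid-like cells. The log2 ratios over B-like cells were 5.01 [4.93, 5.09] and 4.74 [4.64, 4.83], 32.2 and 26.7-fold. Every other class was thus well below plasma-like cells in both libraries. After each cell was thinned to 1000 UMIs outside immunoglobulin genes, 90.9% and 81.2% of plasma-like cells still held an Xbp1 UMI, against 9.46% and 10.4% of B-like, 13.3% and 14.3% of T-like and 21.6% and 18.6% of myeloid-like cells. Before thinning, which removed 1 plasma-like, 12 B-like, 6 T-like and 41 myeloid-like cells as too shallow, these shares were 97.8% and 100%, 38.4% and 40.9%, 57.7% and 56.9% and 55.6% and 68.8%. As a reference for free RNA, released by broken cells and caught in any droplet, Jchain of plasma cells was found in 5.24% and 1.26% of thinned T-like cells.

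The sensors themselves had smaller ratios than Xbp1 over B-like cells. Atf6, the membrane-bound factor that is cut free under stress, was at 251 and 254 in plasma-like and 40.3 and 41.9 in B-like cells, a log2 ratio of 2.64 [2.45, 2.82] and 2.60 [2.34, 2.85]. Ern1, the kinase and RNase that splices Xbp1, was low in plasma-like cells at 32.6 and 32.6, from only 48 and 20 UMIs. T-like cells held more of it, 46.8 and 41.9, so that plasma over T-like was −0.52 [−0.99, −0.09] and −0.36 [−1.09, 0.28] on the log2 scale. B-like cells had 3.35 and 2.03 and myeloid-like cells 14.0 and 19.1. Ern1 was thus the 1 gene of the 40 that was lower in plasma-like than in T-like cells, by an amount whose interval crossed 0 in the FMD library.

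All 11 chaperones and helpers were higher in plasma-like than in B-like and in T-like cells, and 9 of 11 than in myeloid-like cells. Hspa5, which encodes BiP, the central ER chaperone, was at 5759 and 5621 in plasma-like, 1047 and 1024 in B-like, 1434 and 1352 in T-like and 2746 and 3234 in myeloid-like cells. Its ratio over B-like cells was 5.50 and 5.49-fold and over myeloid-like cells 2.10 and 1.74-fold, so it fell short of the 2-fold line there in the FMD library. Hspa5 mRNA was therefore abundant in all classes, and its log2 ratios over B-like cells were below the median of the 40. Hsp90b1, the ER form of HSP90, was at 6134 and 5308 in plasma-like and 504 and 524 in B-like cells, 12.2 and 10.1-fold. Dnajb9, a J-protein that helps BiP, was the other chaperone gene under the line against myeloid-like cells, at log2 ratios of 0.93 [0.72, 1.14] and 0.75 [0.51, 0.99].

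The helpers Mzb1 and Fkbp11, together with Derl3, had the 3 largest ratios over T-like and over myeloid-like cells. Mzb1, a B-lineage helper of antibody assembly, was at 5512 and 6104 in plasma-like and 313 and 305 in B-like cells, but at 3.60 and 4.62 in T-like cells, log2 ratios of 10.58 [10.07, 11.15] and 10.37 [9.92, 10.85]. The T-like level was 0.0653% and 0.0757% of the plasma-like level. For Jchain, as a reference for free RNA, these shares were 0.0427% and 0.0807%, and the part of free RNA in the Mzb1 level was not tested. In 0 and 2 T-like cells, immunoglobulin genes and Jchain made up at least 20% of UMIs. The UMIs of these cells count in the T-like levels, so the FMD share of Jchain is not of free RNA alone. Fkbp11, a prolyl isomerase of the ER, was at 394 and 305 in plasma-like cells from 581 and 187 UMIs, and at 0.568 and 0.239 in B-like cells from 10 and 4 UMIs. Its log2 ratio over B-like cells, 9.44 [8.55, 10.51] and 10.32 [8.94, 12.21], was the largest among the 40, with wide intervals because of those few UMIs. In myeloid-like cells 2 and 1 Fkbp11 UMIs were seen.

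The lectin cycle, in which calnexin and calreticulin hold glycoproteins until they fold, was the group with the smallest excess. Calr was at 1693 and 1721 in plasma-like and 740.2 and 790.0 in B-like cells, a log2 ratio of 1.19 [1.13, 1.26] and 1.12 [1.03, 1.21]. Canx was at 268 and 287, 165 and 188, 136 and 138 and 214 and 240.1 in plasma-like, B-like, T-like and myeloid-like cells. It was not 2-fold higher in both libraries against any class, with log2 ratios of 0.70 [0.54, 0.85] and 0.61 [0.38, 0.83] over B-like, 0.98 [0.81, 1.14] and 1.05 [0.82, 1.28] over T-like and 0.32 [0.12, 0.53] and 0.26 [0.01, 0.50] over myeloid-like cells. Pdia3, the disulfide isomerase that works with both lectins, was above 2-fold against B-like and T-like cells, but at 0.51 and 0.65 against myeloid-like cells. None of the 3 genes was thus at least 2-fold higher than in myeloid-like cells. Calr and Canx hold the same promoter element as Hspa5 and Derl3.

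Among enzymes of disulfide bond formation 6 of 7 were higher than in B-like cells and all 7 than in T-like and myeloid-like cells. Txndc5, a disulfide isomerase, was at 3548 and 3175 in plasma-like, 32.4 and 33.3 in B-like, 17.9 and 17.1 in T-like and 39.0 and 31.4 in myeloid-like cells, 109 and 95.2-fold over B-like cells. Prdx4, the peroxiredoxin of the ER, was at 682 and 686 against 8.97 and 13.7 in B-like cells, log2 ratios of 6.25 and 5.64. Ero1lb, an oxidase that passes electrons from the isomerases to oxygen, behaved differently. Its level was 172 and 166 in plasma-like and 145 and 154 in B-like cells, a log2 ratio of 0.25 [0.06, 0.44] and 0.11 [−0.19, 0.40], but only 13.0 and 9.59 in T-like and 33.1 and 57.6 in myeloid-like cells. Ero1lb was therefore high in both B-lineage classes and hardly higher in plasma-like cells. The other 4 enzymes, Pdia4, Pdia6, P4hb and Txndc11, had log2 ratios over B-like cells from 2.75 to 3.85.

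All 6 genes of ER-associated degradation were higher in plasma-like cells against each class. Derl3, a derlin of the retrotranslocation machinery, was at 516 and 583 against 4.32 and 3.58 in B-like cells, log2 ratios of 6.90 [6.56, 7.26] and 7.35 [6.95, 7.77]. Edem2, which trims mannose from misfolded glycoproteins, was 53.8 and 62.8-fold higher than in B-like cells. The ubiquitin ligase gene Syvn1 and its partner Sel1l had smaller ratios over B-like cells, at 2.27 and 2.43 and at 3.48 and 2.87. Translocation genes were 7 of 7 higher against B-like and T-like and 6 of 7 against myeloid-like cells, the exception being Ssr1, with log2 ratios of 0.91 and 1.11. The subunit gene Ssr4 had the largest ratio of the 7 over B-like cells, 4.27 and 4.27, and Ssr1 the smallest, 1.60 and 1.51. Signal peptidase genes were 3 of 3 higher against each class, led over B-like cells by Sec11c, a catalytic subunit, at 4.40 and 4.40.

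Other genes of the ER and of export from it, 148 in a list fixed beside the 40, had smaller median ratios than the 40. Against B-like cells 100 of 142 tested were at least 2-fold higher, with medians of 1.66 and 1.73. The counts were 16 of 21 for N-glycosylation, 8 of 11 for translocation and signal recognition, 38 of 46 for export and Golgi traffic, 15 of 22 for degradation, 12 of 21 for folding and 10 of 19 for sensing and regulation. Against T-like cells 87 of 137 and against myeloid-like cells 86 of 131 were higher. The lists and the 40 genes were drawn up with earlier results of these data known. Over B-like cells the median log2 ratios were 2.80 and 2.96 for the 13 genes with a promoter match and 3.48 and 3.64 for the 19 without. Over T-like cells they were 2.99 and 3.26 with a match and 3.19 and 3.06 without, and over myeloid-like cells 2.39 and 2.20 against 2.74 and 2.41.

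Within plasma-like cells, most of the 40 genes did not pass the 1.5-fold line between called heavy chains, and Txndc5 was the furthest apart. Igha, the IgA heavy chain, was the called isotype of 82 and 23 cells, and another isotype (Ighm or an Ighg gene) of 7 and 9 cells. The 40 genes took 5.40 and 5.23 percent of UMIs outside immunoglobulin genes in Igha cells and 6.15 and 6.14 percent in the others. Txndc5 was at 3818 and 3647 in Igha cells and 783 and 1324 in the others, log2 ratios of −2.29 [−2.58, −2.00] and −1.46 [−1.70, −1.23] for the other isotypes over Igha cells. Per cell, Txndc5 had a median of 3638 (from 0 to 12702) in ad libitum Igha cells and of 315 (from 244 to 1941) in the 7 ad libitum cells of other isotypes. In the FMD library the medians were 3109 (from 1047 to 8537) and 947 (from 73.9 to 3051). The ranges overlapped in both libraries, with the medians of the other isotypes below those of Igha cells. Txndc5 was the only member at least 1.5-fold lower in both libraries, where 5.33% of 2515 genes were.

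Higher in the other isotypes by at least 1.5-fold in both libraries were 4 of 39 genes, Ero1lb, Dnajb9, Derl3 and Herpud1 (3.86% of all genes). Ero1lb had log2 ratios of 1.43 [0.96, 1.87] and 0.97 [0.33, 1.59], and Derl3 of 0.71 [0.40, 1.01] and 0.95 [0.62, 1.27]. Ero1lb levels per cell had medians of 106 and 145 in Igha cells and of 325 and 240.1 in the others. Xbp1 had ratios of −0.13 [−0.27, 0.02] and 0.11 [−0.06, 0.27]. With 7 and 9 cells of other isotypes, single cells weigh heavily in these values. Jchain, which joins IgA and IgM units, had medians per cell of 98165 and 101495 in Igha cells against 36742 and 52298 in the others.

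**Figure D3:**
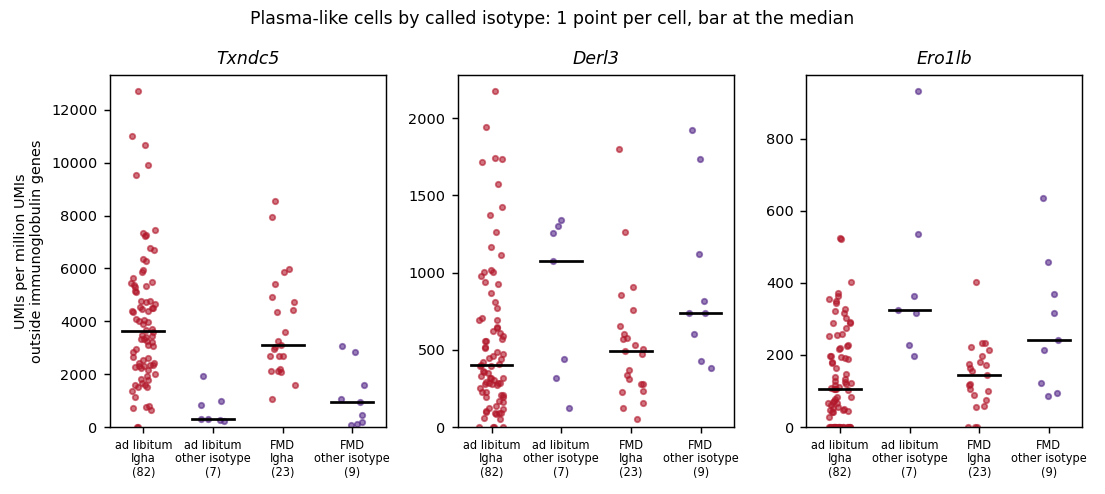
Level of Txndc5, Derl3 and Ero1lb in single plasma-like cells, in UMIs per 1000000 UMIs outside immunoglobulin genes, by library and called isotype, with 1 point per cell and a bar at the median. Txndc5 is lower in cells of other isotypes (medians 315 and 947 against 3638 and 3109), and Ero1lb is higher (325 and 240.1 against 106 and 145).

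In the other classes the genes also differed between subgroups. Among B-like clusters the share of the 40 genes ran from 0.367% to 0.834%, and the highest in each library was cluster 16, germinal centre-like cells with Rgs13 and Mki67 among its leading genes, at 0.834 and 0.698 percent (69 and 81 cells). Germinal centres are sites where activated B cells divide and are selected. In this cluster 15 of 38 genes were at least 1.5-fold higher than in the other B-like cells in both libraries, where 28.4% of 9048 genes were. They were led by genes that were also far higher in plasma-like than in B-like cells, Derl3 (2.98 [2.22, 3.71] and 2.66 [1.83, 3.46]), Prdx4 (2.99 [2.47, 3.49] and 2.49 [2.08, 2.89]), Txndc5 (2.25 [1.95, 2.54] and 2.50 [2.24, 2.76]) and Edem1 (2.06 [1.79, 2.33] and 2.03 [1.79, 2.25]). Mzb1 was higher too, 1.64 and 1.35. Among chaperones and helpers Dnajb11 was the only other one, and Hspa5 was at −0.18 [−0.28, −0.08] and −0.44 [−0.53, −0.35] and Dnajb9 at −0.48 [−0.85, −0.12] and −0.50 [−0.85, −0.17]. Plasma identity genes (Jchain, Sdc1, Prdm1 and others) summed to 1222 and 1113 in this cluster against 265 and 255 in all B-like cells, and T cell markers to 1325 and 681 against 95.6 and 87.1. Their part in the result was not tested.

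Gamma delta T-like cells were the T subgroup with the most ER mRNA. The 40 genes took 1.39 and 1.26 percent of their UMIs (69 and 46 cells), 0.791 and 0.827 percent in regulatory, 0.575 and 0.520 percent in conventional CD4 and 0.435 and 0.426 percent in CD8 T-like cells. In gamma delta T-like cells 26 of 37 genes were at least 1.5-fold higher than in the other T-like cells in both libraries, where 13.4% of 8239 genes were. The 3 furthest apart were Sdf2l1, Ern1 and Hsp90b1. Sdf2l1, a partner of BiP, was at 188 and 153, with log2 ratios of 2.25 [1.92, 2.57] and 2.17 [1.73, 2.59]. Ern1 was at 142 and 159, with ratios of 1.84 [1.47, 2.19] and 2.10 [1.67, 2.52], and Hsp90b1 at 1342 and 1255, with ratios of 1.98 [1.86, 2.10] and 1.90 [1.76, 2.05]. Hspa5 reached 3702 and 3119 there, against 955 and 959 in CD8 T-like cells. Xbp1 was at 286 and 292, with ratios of 0.99 and 0.92. Prdx4 was an exception, with 4 and 3 UMIs in these cells and ratios of −0.23 [−2.15, 1.20] and −0.49 [−2.79, 1.10]. Genes that often respond to tissue handling (Fos, Jun, Hspa1a and others) summed to 7663 and 8163 in gamma delta and 5929 and 5697 in all T-like cells, and their part was not tested.

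Regulatory T-like cells, the Foxp3-positive T cells that restrain immune responses, had 6 of 37 genes at least 1.5-fold above the other T-like cells (10.8% of 8239 genes), a count that rose to 10 when the ER genes were kept in the clustering. Prdx4 was the furthest apart at 2.23 [1.48, 2.97] and 1.16 [0.55, 1.76], followed by Spcs2 at 0.88 [0.75, 1.02] and 1.00 [0.87, 1.13] and Sel1l at 0.96 [0.52, 1.39] and 0.87 [0.48, 1.26]. Xbp1 was at 0.56 and 1.00. Myeloid-like cells were split as well. Monocyte, macrophage or dendritic-like cells (129 and 170) gave the 40 genes 1.08 and 1.18 percent of UMIs and neutrophil-like cells (69 and 54) 0.456 and 0.394 percent. In the former 32 of 35 genes were at least 1.5-fold higher than in neutrophil-like cells, but so were 54.8% of 4635 genes. Calr was at 1093 and 1087 and 246 and 184 in the 2 subgroups. Sdf2l1 was at levels of 135 and 157 in the former. Neutrophil-like cells held 0 and 3 Sdf2l1 UMIs, out of only 288054 and 200826 UMIs outside immunoglobulin genes.

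**Figure D4:**
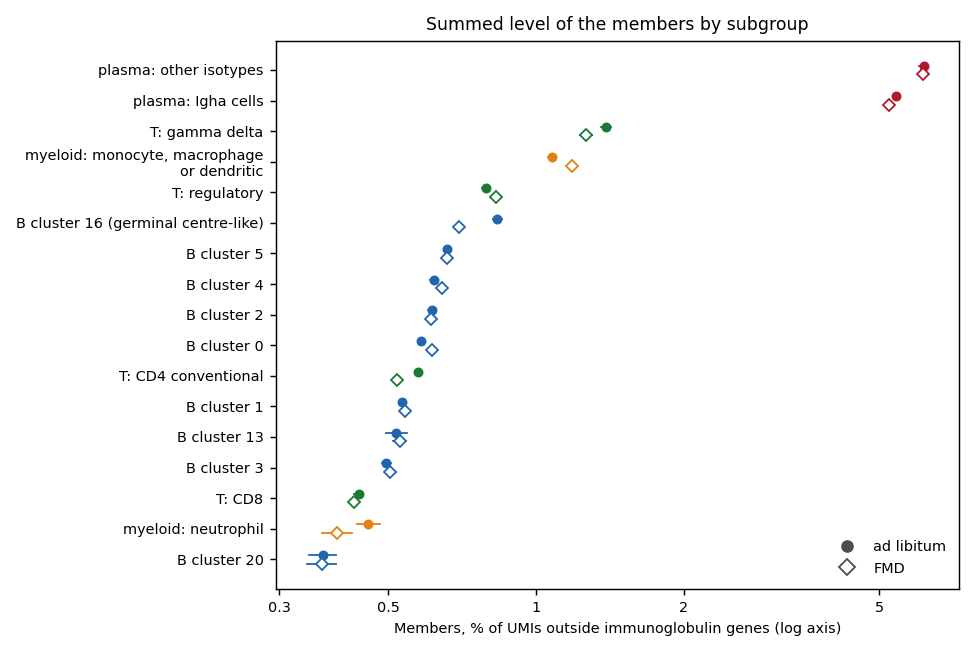
Share of UMIs outside immunoglobulin genes that came from the 40 genes, in percent on a log axis, by subgroup and library (filled circles ad libitum, open diamonds FMD, lines 95% counting intervals). Plasma-like cells lie above 5%, gamma delta T-like and monocyte, macrophage or dendritic-like cells between 1.08% and 1.39%, and all other subgroups under 0.85%.

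Between the diets the ER genes of plasma-like cells differed little. Of 39 genes tested, none was at least 1.5-fold higher and none at least 1.5-fold lower in the FMD library, where 3.5% and 2.9% of all 2515 genes were. The median log2 ratio of FMD over ad libitum was 0.01, with single genes from −0.37 to 0.39, and 0.04 over all genes. Counting intervals lay above 0 for 10 of the 39 genes and below 0 for 6, against 244 and 176 of all 2515 genes. These intervals leave out the spread between cells and between mice, which 1 library per diet cannot show.

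The largest differences in plasma-like cells went both ways. Herpud1, an ER membrane protein of the degradation complex, was higher in the FMD library (1671 and 2194, log2 ratio 0.39 [0.30, 0.49]). Txndc11 (0.23 [0.02, 0.44]) and Ssr2 (0.21 [0.02, 0.39]) came next, and were at 0.92 and 0.98 with cells thinned to 1000 UMIs. The thinned values rest on few UMIs. Where shares of thinned cells were taken, 25 and 8 cells held a Txndc11 UMI (28.4% and 25%). An Ssr2 UMI was held by 31 and 10 cells (35.2% and 31.25%). Lower were Fkbp11 (394 and 305, −0.37 [−0.62, −0.13]), Edem1 (1685 and 1367, −0.30 [−0.42, −0.19]) and Xbp1 (−0.28 [−0.36, −0.20]). Hspa5 was at −0.03 [−0.09, 0.02] and Atf6 at 0.02 [−0.26, 0.29], and Ern1, with 68 UMIs in all, was under the minimum of 100. The Fkbp11 ratio was −0.76 with the mean of per-cell levels, and 1 cell held 11.8% of its UMIs in the FMD library. Per cell, Xbp1 had medians of 3247 and 2442, and its highest cell held 4.39% and 7.95% of its UMIs. Igha cells were 82 of 89 plasma-like cells in the ad libitum and 23 of 32 in the FMD library, so the ratios were also taken in Igha cells alone. Xbp1 was then at −0.31 [−0.40, −0.23] and Herpud1 at 0.33 [0.22, 0.44], while Fkbp11 (−0.24 [−0.51, 0.02]), Txndc11 (−0.03 [−0.28, 0.21]) and Ssr2 (0.07 [−0.13, 0.27]) had intervals across 0. The handling genes had a median log2 ratio of −0.38 in plasma-like cells, and 4 of 12 were at least 1.5-fold lower in the FMD library. Proliferation genes (Mki67, Top2a and others) summed to levels of 180 and 302 in plasma-like cells. The part of either list in the differences above was not tested.

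In B-like cells 1 of 38 genes was at least 1.5-fold higher in the FMD library and none lower (1.25% and 0.785% of 9048 genes), with a median of 0.05. The gene was Prdx4, with 158 and 230 UMIs and a ratio of 0.61 [0.31, 0.91]. The call was lost, at log2 ratios of 0.55, 0.45 and 0.53, with finer clusters (resolution 2), with cells thinned to 1000 UMIs and with the mean of per-cell levels. Sel1l was next at 0.47 [0.28, 0.66], or −0.07 with cells thinned to 1000 UMIs. Where shares of thinned cells were taken, 84 and 87 B-like cells held a Sel1l UMI (2.69% and 3.08%). Canx followed at 0.19 [0.11, 0.26], while Dnajb9 (−0.29 [−0.39, −0.18]), Derl3 (−0.27 [−0.78, 0.24]) and Edem2 (−0.25 [−0.52, 0.01]) were the lowest. Xbp1 was at −0.01 [−0.10, 0.08] and Hspa5 at −0.03 [−0.06, −0.0014]. Without the germinal centre-like cells, where Prdx4 was higher, its ratio was 0.61 [0.24, 0.98]. Ern1, at 59 and 34 UMIs and so under the minimum of 100, was at −0.72 [−1.38, −0.09], and at −0.19 [−0.89, 0.50] without the germinal centre-like cells. Atf6 was at 0.06 [−0.10, 0.21]. Within the germinal centre-like cells the median went the other way, −0.23 over 33 genes, with 7 ratios above 0. Over all genes it was 0.01, with 1882 of 3612 above 0. T cell markers summed to 1325 and 681 in the germinal centre-like cells, and their part was not tested. The handling genes had a median of −0.41 in B-like cells, with 12 of 12 intervals below 0.

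In T-like cells none of 37 genes was 1.5-fold apart in either direction (0.91% higher and 1.26% lower of 8239 genes), and 28 of 37 ratios lay below 0, with a median of −0.04, against 4062 of 8239 and 0.0022 over all genes. Sdf2l1 was at −0.36 [−0.57, −0.14], Ero1lb at −0.43 [−0.87, −0.01] and Sec61g at −0.20 [−0.28, −0.13]. Prdx4 was the highest at 0.54 [0.08, 1.02], from 66 and 100 UMIs, followed by Edem1 at 0.11 [−0.03, 0.24] and Spcs1 at 0.07 [−0.06, 0.20]. Prdx4 was at −0.32 with cells thinned to 1000 UMIs, a value that rests on few UMIs. Where shares of thinned cells were taken, 8 and 13 T-like cells held a Prdx4 UMI (0.735% and 1.17%). The Prdx4 ratio was 0.87 [0.23, 1.54] without the regulatory cells, which have the higher Prdx4 level. Within regulatory cells its ratio was −0.19 [−0.88, 0.51]. Ero1lb was at 0.03 without doublet removal. Ern1 was at −0.16 [−0.37, 0.05], Atf6 at −0.03 [−0.24, 0.18], Xbp1 at 0.06 [−0.05, 0.17] and Hspa5 at −0.09 [−0.12, −0.05]. Regulatory cells were 198 and 281 of the T-like cells, and without them Ern1 was at −0.40 [−0.65, −0.14], Xbp1 at −0.15 [−0.29, −0.02] and Hspa5 at −0.21 [−0.25, −0.16]. Edem1 and Spcs1 were then at −0.10 [−0.27, 0.06] and −0.12 [−0.28, 0.04]. Gamma delta cells, with the highest share of ER mRNA, were 69 and 46 of the T-like cells and stayed in these ratios. Their part was not tested. Within subgroups the medians of the genes tested were −0.14 in conventional CD4, −0.08 in CD8, −0.10 in gamma delta and 0.11 in regulatory cells.

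Myeloid-like cells had a positive median, 0.24, over 35 genes, with 29 ratios above 0, against 0.03 over all genes, with 2513 of 4635 above 0. Handling genes had a median of −0.30, with 8 of 12 intervals below 0. Epithelial markers summed to 463 and 54.9 and plasma identity genes to 402 and 156. Their part in the result was not tested. The 1 gene at least 1.5-fold higher was Ero1lb (57 and 145 UMIs, 0.80 [0.35, 1.27]), and none was lower (4.03% and 5.83% of 4635 genes). Txndc11 (0.47 [−0.05, 1.00]) and Sel1l (0.46 [0.04, 0.90]) followed, Spcs1 (−0.32 [−0.60, −0.03]), Txndc5 (−0.31 [−0.80, 0.18]) and Ssr1 (−0.23 [−0.51, 0.05]) were the lowest, and Hspa5 was at 0.24 [0.18, 0.29]. Sel1l was at −0.22 with the mean of per-cell levels. Xbp1 was at −0.04 [−0.23, 0.15], Atf6 at 0.26 [−0.13, 0.65] and Ern1, with 24 and 48 UMIs, at 0.45 [−0.28, 1.22]. Neutrophil-like cells, which have the lower share of ER mRNA, were 69 of 198 myeloid-like cells in the ad libitum and 54 of 224 in the FMD library. Within monocyte, macrophage or dendritic-like cells the median was 0.12 over 35 genes (−0.01 over 4346 genes), and Ero1lb was at 0.71 [0.25, 1.19].

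**Figure D5:**
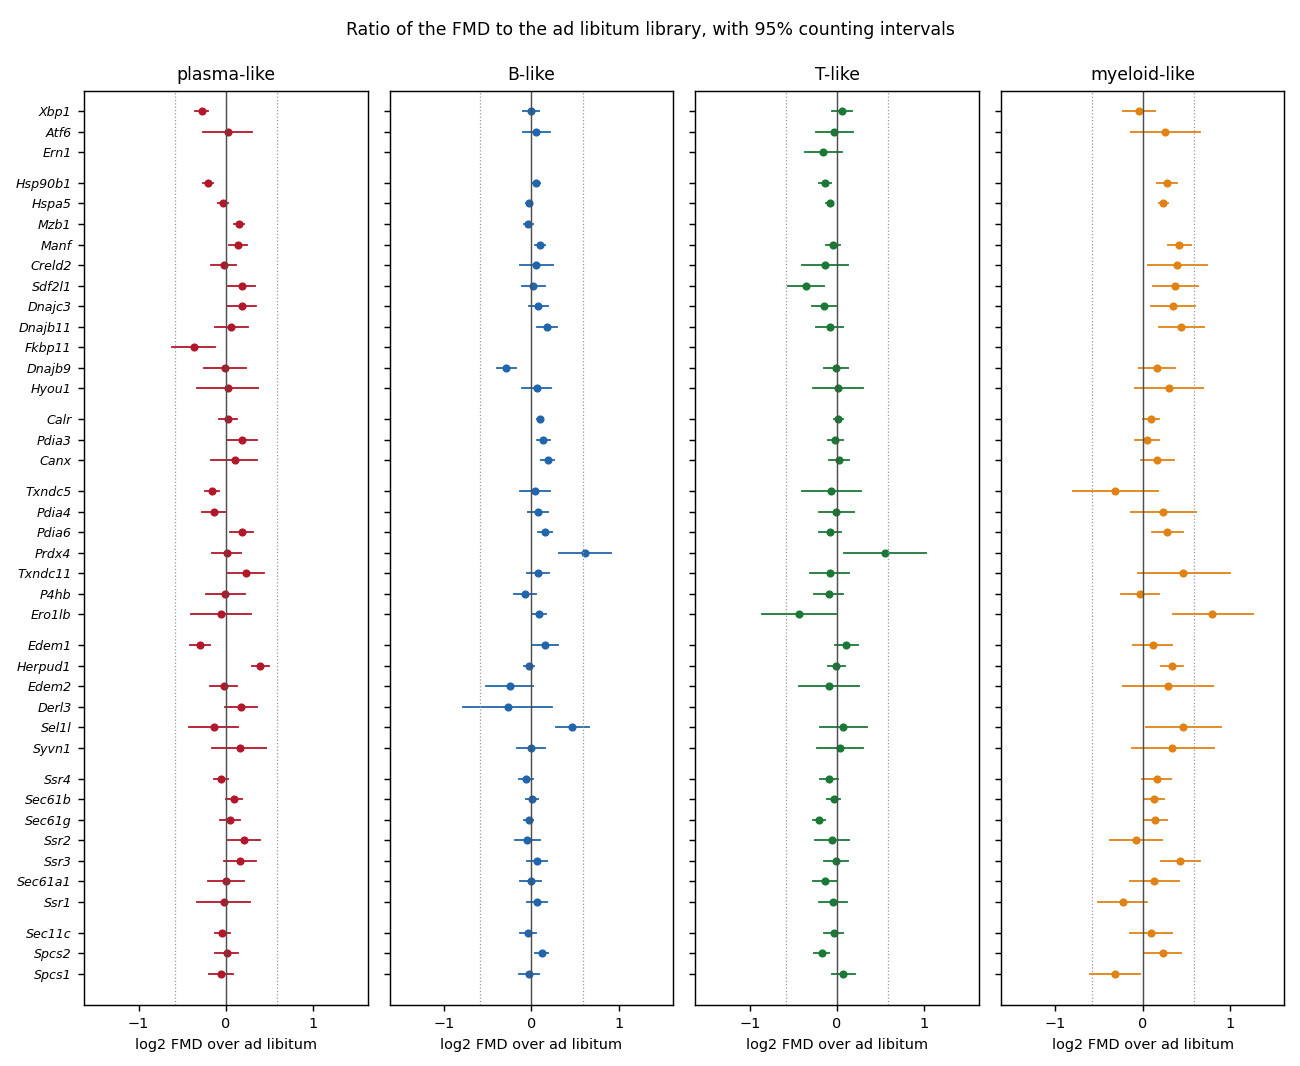
Log2 ratio of the FMD to the ad libitum library for each gene with at least 100 UMIs in a class, with 95% counting intervals as lines and dotted lines at 1.5-fold. In plasma-like cells all points lie between −0.37 and 0.39, and beyond the dotted lines lie only Prdx4 in B-like and Ero1lb in myeloid-like cells.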

How the data were processed

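Per the file headers, the deposited matrices hold counts, raw UMI counts per gene and barcode written by Cell Ranger 3.1.0; the submitters' processing notes also name CASAVA 1.8, Seurat 2.3.4 and GRCm38, with no roles. The lowest total per barcode was 500 UMIs. Cells with under 200 genes (475 and 441), over 20% mitochondrial UMIs (661 and 694) or markers of 2 lineages (doublets, at least 5 UMIs and 0.5 per 1000 UMIs of each; 115 and 165) were removed. Both libraries were clustered together with scanpy 1.11.5 and leidenalg 0.10.2 (2000 variable genes, 30 components, 15 neighbors, resolution 1, seed 1). T-like subclasses were named by Trdc, Foxp3, Cd8a and Cd4. An isotype was called from at least 10 heavy chain UMIs with over 50% from 1 gene.

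UMIs were summed per class and library. Intervals are exact Poisson (levels) or exact conditional binomial (ratios). The ratio intervals were run on simulated Poisson counts, which hold no spread between cells and so cannot test the intervals against it. Genes needed 100 UMIs, and a 0 was set to 3 UMIs for a ratio. In comparisons of classes genes were described by role; genes named between diets were Xbp1, Hspa5, Ern1, Atf6, the 3 highest and 3 lowest, and those 1.5-fold apart; genes named for subgroups and isotypes were chosen after their values were seen. The members and lists were chosen with earlier results of these data known. Normal colon is also mentioned in the labelled extraction protocol; the libraries were taken as tumor from their titles. Protein sequences were not used here.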

Additional observations from a re-analysis of the deposited data

How the results depend on the processing

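No test between diets is possible with 1 library each, and no paired analysis was possible because each diet has only 1 library. Counting intervals leave out cell and mouse differences. The 32 FMD plasma-like cells and members with few UMIs limit precision as well. Alternatives on subgroups, on classes without a subgroup and on cells rich in immunoglobulin were added after seeing the data.

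Of 285 comparisons of counts and medians with an alternative, 255 stayed within a set range. For a count this range was 1.5 times the main value. For a median it ran from the median lower to the median upper limit of the single genes' counting intervals. That range is as wide as a typical single gene's interval and is not an interval of the median. With all UMIs as denominator the median log2 ratios of plasma-like cells were 1.85 and 1.88 over B-like, 1.87 and 1.93 over T-like and 1.24 and 1.01 over myeloid-like cells, with 20 members higher than in myeloid-like cells. With cells thinned to 1000 UMIs, the FMD median over B-like was 3.24, the ad libitum median over T-like 3.23 and the medians over myeloid-like cells 2.93 and 2.61, over 37, 34 and 28 testable members. With the mean of per-cell levels they were 3.23 and 3.25 over B-like, 3.23 (ad libitum) over T-like and 2.81 (ad libitum) over myeloid-like cells, and at resolution 2 the ad libitum median over T-like was 3.17.

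Members 1.5-fold apart between libraries numbered 1 in plasma-like cells (Fkbp11, −0.76) with per-cell means. In B-like cells there were 0 at resolution 2, thinned or with per-cell means, and 2 with a minimum of 20 UMIs. T-like cells had 1 with a mitochondrial maximum of 10% (Prdx4), at resolution 2 (Prdx4) and with a minimum of 20 UMIs (Derl3), and 2 without doublet removal (Mzb1, Prdx4). Myeloid-like cells had 2 with a mitochondrial maximum of 10%, without doublet removal and with a minimum of 20 UMIs, and 6 with per-cell means. The median of members between libraries ran from −0.02 to 0.04 in plasma-like and from 0.07 to 0.25 in myeloid-like cells over the alternatives run, the lowest myeloid value being that of thinned cells, over 8 testable members. The count in regulatory T-like cells was 10 with the ER genes kept in clustering. The cause was not tested for these changes, except that thinning left fewer members testable.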

Other observations

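A small B-like cluster of 58 and 48 cells, cluster 20, led by Siglecg, Cr2 and Ly6d, held the lowest share of the 40 genes, 0.368 and 0.367 percent. Hspa5 was at 265 and 255 there (UMIs per 1000000 UMIs outside immunoglobulin genes), with log2 ratios over the other B-like cells of −1.99 [−2.36, −1.65] and −2.02 [−2.42, −1.65]. Herpud1 was at 39.0 and 34.5, from 10 and 8 UMIs, with ratios of −2.76 [−3.82, −1.88] and −2.91 [−4.12, −1.93]. Xbp1 was at 42.9 and 30.2. These 3 genes were thus low together in both libraries, while the handling genes of this cluster summed to 2667 and 3497 against 5087 and 3630.5 in all B-like cells. Another B-like cluster, cluster 3, was led by cytosolic heat shock genes (Hspb1, Hspa1a, Hsph1, Dnajb1) and held handling genes at 15886 and 14118. Its ER genes took 0.496 and 0.506 percent of UMIs, with Hspa5 at ratios of −0.13 [−0.20, −0.06] and −0.10 [−0.19, −0.01] over the other B-like cells. Dnajb9 was higher there at 0.85 [0.67, 1.03] and 0.97 [0.72, 1.21], and Sdf2l1 was lower at −0.82 [−1.22, −0.45] and −0.86 [−1.40, −0.37]. Whether either pattern arose in the tissue or during cell isolation was not tested.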
